A study of Saccharomyces cerevisiae with 6 samples.

Results

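Ergosterol is the main sterol of yeast membranes, and the genes described here encode the route that makes it. They are 31 budding yeast genes chosen by name: the enzymes of the mevalonate pathway, the enzymes from farnesyl pyrophosphate to ergosterol, their electron donors, the sterol esterifying enzymes, the transcription factors that control them, a sterol-binding protein and the first enzyme of heme synthesis. Every one of the 31 genes had a probe set that names it alone, and 0 had a probe set that names several genes. Each gene is represented by its brightest probe set, out of 9275 probe sets that are not controls. Of the 31, 30 passed a filter on dim probe sets that left 6956 to be tested, and HES1 did not.

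Transcript levels were read on 6 single-colour arrays of total RNA from Saccharomyces cerevisiae W303-1a, a common laboratory strain, with 2 arrays in each group. The groups were wild type, a strain lacking GPR1, the receptor that senses glucose at the cell surface, and a strain lacking GPA2, the G protein alpha subunit that acts with this receptor. The study asked about the control of cell size by glucose, and the sources used here do not give the sugar, medium or growth stage. No agent or other allele is named in the labels, and the labels do not say whether each deletion strain is a single clone or whether the cultures behind the arrays of 1 group were separate, and 1 label, that of gpa2 array 2, names a second experiment. The p-values therefore measure only the spread between these arrays, which may be technical.

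The mevalonate pathway joins acetyl-CoA units into the isoprenoid precursors of sterols, dolichols, ubiquinone, heme A and protein prenyl groups, and HMG-CoA reductase is its main point of control. Farnesyl pyrophosphate is joined into squalene, which is oxidised and closed into lanosterol, and a series of demethylations, reductions, isomerisation and desaturations then gives ergosterol. Several of these steps need oxygen and heme, and in yeast Upc2 and Ecm22 raise transcription of ERG genes when sterols fall. The receptor and G protein deleted here signal to adenylate cyclase and protein kinase A.

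The arrays differed in brightness, with median deposited intensities of 225.1 to 563.5, and were quantile normalised. The deleted genes read as labelled: the intensity of GPR1 was 5.1 and 2.8 where GPR1 was deleted and 490.7 to 1086.4 elsewhere, and that of GPA2 was 9.3 and 10.9 where GPA2 was deleted and 1029.2 to 2410.3 elsewhere. Across probe sets, Pearson's r was 0.939 between the wild-type arrays, 0.969 between the arrays of each deletion, and 0.923 to 0.978 between arrays of different groups; some arrays resembled those of another group more than their own partner. W303-1a is a strain of mating type a, and its receptor gene STE2 read 1433.4 to 4662.7 over the 6 arrays, while the alpha pheromone gene MF(ALPHA)1 read 33.8 to 129.7. Of the other markers, MFA1, MFA2, BAR1 and AGA2 of mating type a read at least 778.2. MF(ALPHA)2 and STE3 of mating type alpha read at most 167.6. The probe set of MFA1, 6021_f_at, may share sequence with other genes by its suffix. The lists did not divide cleanly, as ASG7 of mating type a read 7.9 to 11.8 and SAG1 of mating type alpha 251.5 to 691.1. Tested were 5 of 6 markers of mating type a and 3 of 4 of mating type alpha. Of haploid and sporulating cells, 5 of 5 and 3 of 5 were tested. None passed in the gpr1 or gpa2 deletion, beside 0.216% and 0.791% of all probe sets. Of the haploid markers, only HO had all 4 mutant arrays above both wild-type arrays, with log2 changes of 0.99 and 0.79 (limma adjusted p = 0.265 and 0.258). Of the sporulation markers, IME1 read 120 to 426.5, IME2 27.2 to 186.5 and NDT80 26 to 139.1, and SPO11 and SPO13 at most 23.1.

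No gene of the ergosterol and mevalonate route passed the test in any comparison. In the gpr1 deletion 0 of 30 members were called at a limma adjusted p under 0.05, where 0.216% of the 6956 probe sets were. In the gpa2 deletion 0 of 30 were called against 0.791% of all probe sets. Between the deletions the figures were 0 of 30 and 0.0288%, and for the mean of both deletions against wild type 0 of 30 and 0.791%. With background shares this low, 0 calls among 30 genes is a share near the background. The smallest adjusted p of any member, by limma, was 0.897 without GPR1 and 0.413 without GPA2. At an unadjusted p under 0.05 there were 0 members in the gpr1 deletion, where 6.66% of all probe sets lay, and 1 in the gpa2 deletion, ERG2, where 11.5% of all probe sets lay.

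The median log2 change of the 30 members was -0.049 in the gpr1 deletion, with an interquartile range of -0.18 to 0.10, beside a median of -5.69e-06 over all probe sets tested. In the gpa2 deletion it was -0.057, with an interquartile range of -0.26 to 0.18, beside -0.020 over all probe sets. Of the members, 12 read above wild type and 18 below in the gpr1 deletion, and 14 above and 16 below in the gpa2 deletion. Their mean log2 intensity was 11.85 for wild-type array 1, 11.71 for wild-type array 2, and between 11.72 and 11.74 for each mutant array. The wild-type arrays thus lay further apart in this mean than any of the mutant arrays did.

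**Figure D1:**
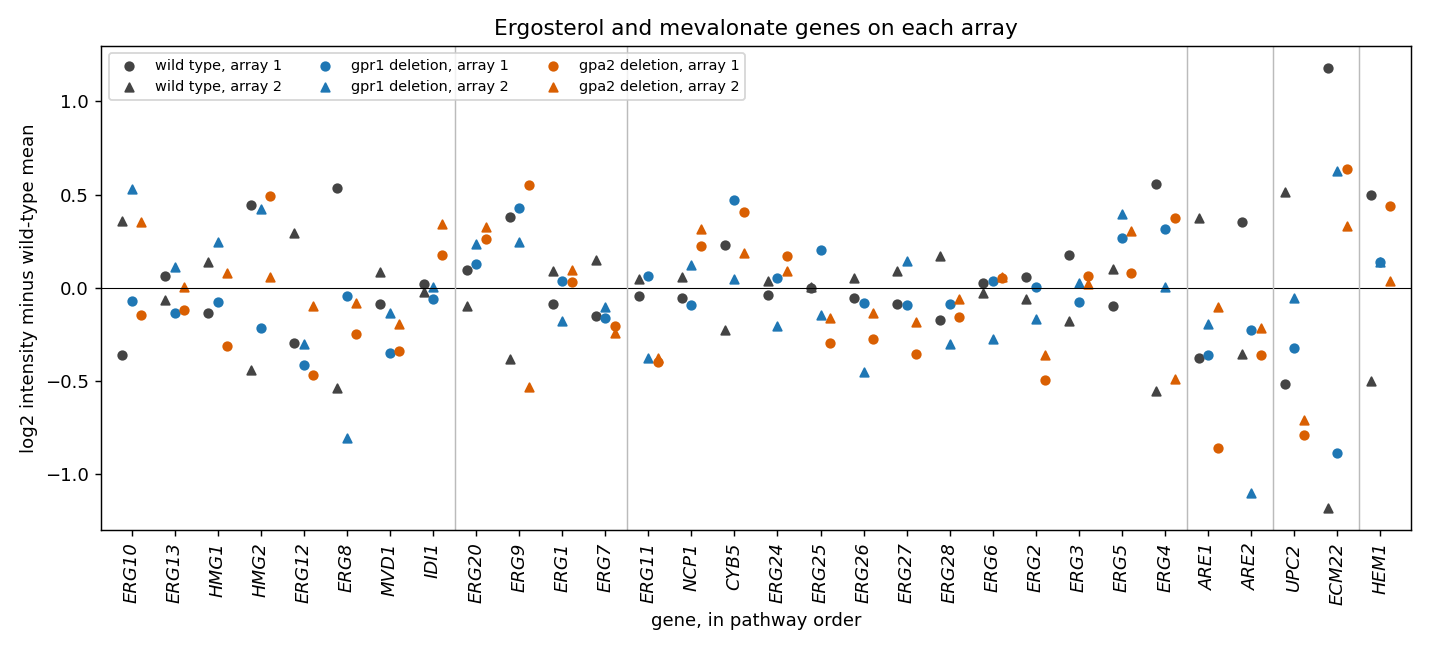
Normalised log2 intensity of each of the 30 tested genes on each array, minus the gene's wild-type mean, in pathway order from left to right. Circles are arrays numbered 1 and triangles arrays numbered 2. Grey lines separate mevalonate enzymes, farnesyl pyrophosphate to lanosterol, lanosterol to ergosterol, esterification, regulators and heme. Both gpr1 arrays lie above both wild-type arrays for 2 genes and below for 3, beside 16.1% and 16.3% of all probe sets. Both gpa2 arrays lie above for 5 genes and below for 8, beside 19% and 20.7%. ECM22 is the most spread, with a wild-type gap of 2.36.

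A p that misses a threshold does not show that a level stayed the same, so the 95% interval of each change was compared with a 2-fold change in either direction. In the gpr1 deletion the interval lay within 2-fold for 23 of 30 members, beside 61.2% of all probe sets, and in the gpa2 deletion for 24 of 30, beside 55.9%. Between the deletions it did so for 24 of 30, beside 67.9%, and for the mean of both deletions for 25 of 30, beside 69.4%. The standard error bears on this count, as its median was 0.21 for the members and 0.28 for all probe sets in a comparison with wild type. The genes whose interval passed 2-fold in the gpr1 deletion were ERG8, ERG9, ERG4, ARE1, ARE2, UPC2 and ECM22. In the gpa2 deletion they were HMG2, ERG8, ARE1, ARE2, UPC2 and ECM22, so for these genes a 2-fold change lay within the interval.

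**Figure D2:**
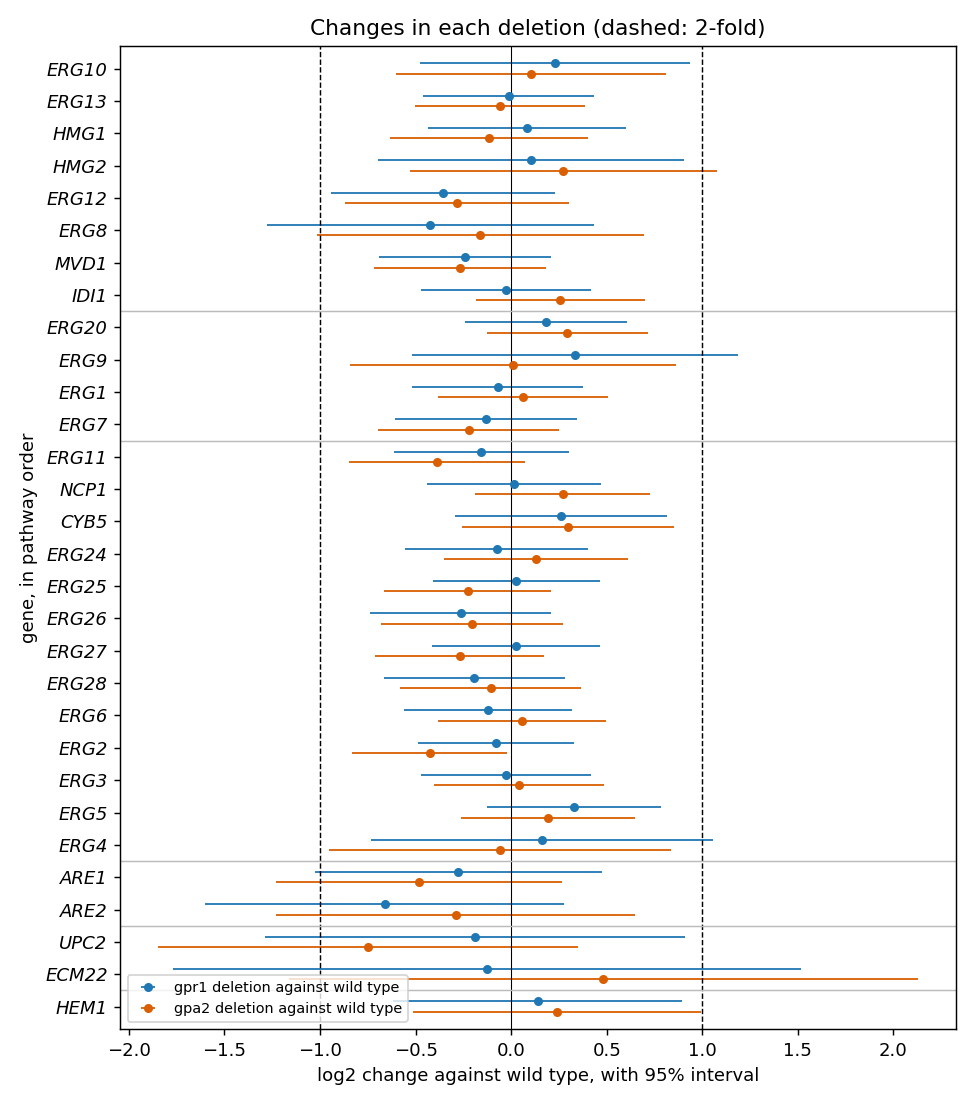
Log2 change of each tested gene against wild type, with its 95% interval from limma (n = 2 arrays per group), in pathway order from top to bottom. Blue marks the gpr1 deletion and orange the gpa2 deletion; the interval of 23 genes in the gpr1 deletion and of 24 in the gpa2 deletion lies between the dashed lines at a 2-fold change, and the widest belong to ECM22 and UPC2.

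Where a gene is said to read a value, the value is its log2 difference from the wild-type mean after scaling. The comparisons of the deletions with wild type share the same wild-type arrays, so their values for a gene are not independent. The first 3 steps of the mevalonate route make mevalonate from acetyl-CoA. ERG10 (probe set 7770_at), the acetoacetyl-CoA thiolase, had deposited intensities of 10481.5 and 13425.8 in wild type, 11993.8 and 10936.5 in the gpr1 deletion and 5178.1 and 8710.2 in the gpa2 deletion. After scaling, the array numbered 2 was the higher in each group, by 0.72, 0.60 and 0.49 on the log2 scale in wild type, gpr1 and gpa2, and the groups overlapped. Its log2 change was 0.23 ± 0.31 (SE, n = 2 arrays per group) without GPR1 and 0.10 ± 0.31 without GPA2. ERG13, which encodes HMG-CoA synthase, read -0.01 in the gpr1 deletion, with a 95% interval of -0.46 to 0.43, and -0.06 in the gpa2 deletion, with -0.50 to 0.39.

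HMG-CoA reductase, the rate-limiting enzyme, is encoded by the paralogues HMG1 and HMG2. HMG1 (9724_at) had deposited intensities of 9938.8 and 9558.5 in wild type, 9654.4 and 6876.2 in the gpr1 deletion and 3600.9 and 5562.4 in the gpa2 deletion. These values follow the order of the arrays' median intensities. After scaling its log2 change was 0.08 in the gpr1 deletion (95% interval -0.43 to 0.60) and -0.11 in the gpa2 deletion (-0.63 to 0.40), and the groups overlapped. HMG2 (9854_at) had 1922.6 and 712.4 in wild type, 1172.4 and 924.1 in the gpr1 deletion and 763.6 and 639.8 in the gpa2 deletion. The wild-type arrays of HMG2 lay 0.89 apart on the log2 scale, which is wider than its change of 0.10 without GPR1 and 0.27 without GPA2. Its interval in the gpa2 deletion reached 1.07, so a rise just above 2-fold lay within it.

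The next enzymes turn mevalonate into the isoprenoid units. ERG12, mevalonate kinase, had 4 probe sets, the brightest of which, 2758_s_at, may share sequence with other genes by its suffix. It had deposited intensities of 3384.2 and 3821.1 in wild type, 2905.8 and 1601.1 in the gpr1 deletion and 1137.6 and 1644.8 in the gpa2 deletion. The log2 change of this probe set was -0.36 in the gpr1 deletion, where both arrays lay below both wild-type arrays, and -0.28 in the gpa2 deletion, where they overlapped. The other probe sets of ERG12 read -0.21 (2757_g_at), -0.29 (9435_at) and 0.17 (2756_at) in the gpr1 deletion, so they did not all have the same sign. Of these, 9435_at had both gpr1 arrays below both wild-type arrays, and the others overlapped. In the gpa2 deletion 2757_g_at and 9435_at read -0.49 and -0.21, each with both arrays below both wild-type arrays, and 2756_at read -7.68e-06. None of these probe sets passed.

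ERG8, phosphomevalonate kinase, had 5702.3 and 1990.2 in wild type, 3524.2 and 1080.9 in the gpr1 deletion and 1254.5 and 1571 in the gpa2 deletion. Its wild-type arrays lay 1.07 apart after scaling and bracketed all 4 mutant arrays but the lowest, gpr1 array 2. MVD1, mevalonate pyrophosphate decarboxylase (8801_at), had 8054.4 and 6968.9 in wild type, 6083.5 and 3782.2 in the gpr1 deletion and 2631.6 and 3312 in the gpa2 deletion. All 4 scaled mutant arrays of MVD1 lay below both wild-type arrays, with log2 changes of -0.24 ± 0.20 and -0.27 ± 0.20, neither of which passed (limma adjusted p = 0.933 and 0.645). IDI1, which interconverts the isoprenoid isomers, read -0.03 without GPR1 and 0.26 without GPA2. Of the 8 mevalonate genes, none passed the test, with medians of -0.020 without GPR1 and -0.086 without GPA2.

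From farnesyl pyrophosphate to lanosterol there are 4 genes, and none passed. ERG20 (11171_at), farnesyl pyrophosphate synthase, stands where the sterol and other isoprenoid branches part, and had 11213.7 and 7984.2 in wild type, 10708.2 and 6617.4 in the gpr1 deletion and 5426.7 and 6508.7 in the gpa2 deletion. After scaling all 4 mutant arrays lay above both wild-type arrays, by a log2 change of 0.18 ± 0.19 without GPR1 and 0.29 ± 0.19 without GPA2 (limma adjusted p = 0.974 and 0.580). Among the 30 members, by brightest probe set, ERG20 alone had all 4 mutant arrays above both wild-type arrays. MVD1 and ERG26 alone had all 4 below, and the probe set 9435_at of ERG12, not its brightest, did too. Of the 6956 probe sets tested, 718 had all 4 mutant arrays above both wild-type arrays and 765 had all 4 below.

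ERG9 (4350_at), squalene synthase, had 6509.7 and 2794.9 in wild type, 6008.4 and 2743.6 in the gpr1 deletion and 2790 and 1469.1 in the gpa2 deletion. In each group the array numbered 1 was the higher after scaling, by 0.76 in wild type, 0.18 without GPR1 and 1.08 without GPA2, and the groups overlapped. The log2 changes of ERG9 were 0.33 ± 0.37 without GPR1 and 0.01 ± 0.37 without GPA2. The gaps in wild type and in the gpa2 deletion were wider than both changes. The gap in the gpr1 deletion was narrower than the change without GPR1. ERG1, squalene epoxidase and the target of allylamine antifungals, read -0.07 and 0.06, and ERG7, lanosterol synthase, read -0.13 and -0.22 in the gpr1 and gpa2 deletions.

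The 13 genes from lanosterol to ergosterol had medians of -0.026 without GPR1 and -0.057 without GPA2, and none passed. ERG11 (4525_at), the lanosterol demethylase that azole antifungals inhibit, had 22383.1 and 23767.4 in wild type, 24268.6 and 12700.1 in the gpr1 deletion and 10802.1 and 12152.4 in the gpa2 deletion. After scaling the gpa2 arrays lay below both wild-type arrays, and the gpr1 arrays lay 0.44 apart, 1 above and 1 below wild type. The log2 change was -0.16 ± 0.20 without GPR1 and -0.39 ± 0.20 without GPA2 (limma adjusted p = 0.504 for the latter), which became -0.021 when arrays were centred on their medians. NCP1, the reductase that passes electrons to Erg11 and Erg5, read 0.02 and 0.27, and CYB5, a cytochrome that also donates electrons in sterol synthesis, read 0.26 and 0.30 in the gpr1 and gpa2 deletions.

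ERG24 encodes the reductase that acts after Erg11, and ERG25, ERG26 and ERG27 the oxidase, dehydrogenase and reductase that remove methyl groups from the sterol ring, held together by the scaffold Erg28. ERG25 (4941_at) had deposited intensities of 23632.2 and 23886.6 in wild type, 26990.4 and 16426.9 in the gpr1 deletion and 12608 and 15784.6 in the gpa2 deletion. Against wild type the gpa2 deletion read -0.23 on the log2 scale after quantile scaling and 0.24 after median centring, so its sign followed the scaling. ERG26 read -0.26 and -0.21 in the gpr1 and gpa2 deletions, ERG27 read 0.03 and -0.27, ERG28 read -0.19 and -0.11, and ERG24 read -0.08 and 0.13. The 5 genes thus had no common sign in the gpr1 deletion, where ERG25 and ERG27 lay above 0 and the others below.

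The last enzymes are the methyltransferase Erg6, the isomerase Erg2, the desaturases Erg3 and Erg5 and the reductase Erg4. ERG2 (9429_at) had deposited intensities of 27772.1 and 27192.9 in wild type, 27815.4 and 19954.3 in the gpr1 deletion and 13343.8 and 16464.4 in the gpa2 deletion. After scaling the gpa2 arrays of ERG2, at 14.10 and 14.24 on the log2 scale, lay below the gpr1 arrays, at 14.60 and 14.43, and the wild-type arrays, at 14.66 and 14.54. Against wild type the gpa2 deletion read -0.43 ± 0.18, with a 95% interval of -0.83 to -0.02 and an unadjusted p of 0.0418 by limma (adjusted p = 0.413). After median centring it was 0.10, so the sign of this change depended on the scaling. In the gpr1 deletion ERG2 read -0.08, and between the deletions -0.35 (limma adjusted p = 1.00).

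ERG4 (5005_at), the enzyme of the final step, had 12622.1 and 4687.8 in wild type, 10163.8 and 4525.6 in the gpr1 deletion and 4827.5 and 2893.6 in the gpa2 deletion. As for ERG9, the array numbered 1 was the higher in each group after scaling, by 1.11, 0.31 and 0.86, and the log2 changes of 0.16 ± 0.39 and -0.06 ± 0.39 were smaller than these gaps. ERG5 (9637_at) had 5672.1 and 4810.6 in wild type, 6516.7 and 3857.3 in the gpr1 deletion and 2464.8 and 3311.4 in the gpa2 deletion. Both gpr1 arrays of ERG5 lay above both wild-type arrays after scaling, with a log2 change of 0.33 ± 0.20 (limma adjusted p = 0.897), and the gpa2 arrays overlapped wild type. ERG6 read -0.12 and 0.06 and ERG3 read -0.03 and 0.04 in the gpr1 and gpa2 deletions, and the 95% intervals of both genes lay between -0.56 and 0.50 in each.

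**Figure D3:**
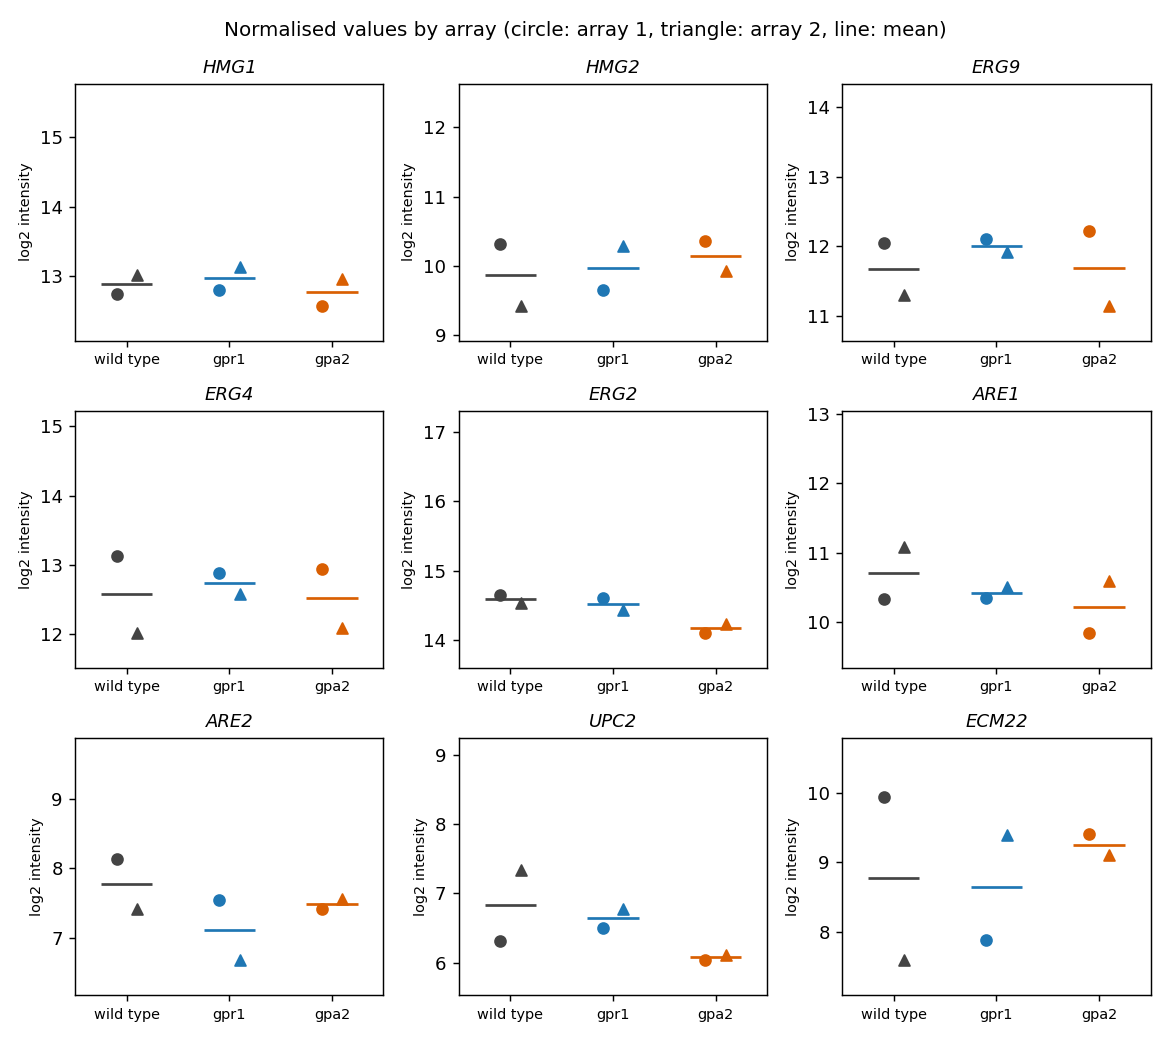
Normalised log2 intensity by array for 9 genes, with circles for arrays numbered 1, triangles for arrays numbered 2, and a line at the group mean (n = 2). Each panel has its own level and the same span of log2 units; ERG4 and ERG9 show the array numbered 1 above the array numbered 2 in each group, ERG2 and UPC2 show both gpa2 arrays below both wild-type arrays, and ECM22 shows a wild-type gap of 2.36.

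Sterols in excess are esterified to fatty acids by Are1 and Are2. ARE1 (6837_at) had 1946.5 and 2430.3 in wild type, 1864 and 1070.2 in the gpr1 deletion and 544.5 and 1024.9 in the gpa2 deletion. ARE2 (8867_at), which in yeast accounts for most of this activity in aerobic cells, was dimmer, with 439.5 and 163.5 in wild type, 268.7 and 73 in the gpr1 deletion and 109.2 and 119.6 in the gpa2 deletion. Both genes read below wild type in each deletion without passing, and their arrays overlapped in each. The log2 changes were -0.28 ± 0.33 and -0.48 ± 0.33 for ARE1 and -0.66 ± 0.41 and -0.29 ± 0.41 for ARE2 in the gpr1 and gpa2 deletions, all with a limma adjusted p of at least 0.608.

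The transcription factor genes were the least precisely measured. UPC2 (6270_at) had 134.9 and 153.5 in wild type, 128.7 and 78.3 in the gpr1 deletion and 43.7 and 41.9 in the gpa2 deletion. Both gpa2 arrays lay below both wild-type arrays and both gpr1 arrays after scaling, while the wild-type arrays were 1.03 apart, and the log2 change in the gpa2 deletion was -0.75 ± 0.48 (95% interval -1.85 to 0.35, limma adjusted p = 0.585). ECM22 (10120_at) had 1494.6 and 186.3 in wild type, 340.2 and 495.7 in the gpr1 deletion and 406.6 and 355.4 in the gpa2 deletion. The wild-type arrays of ECM22 lay on either side of all 4 mutant arrays and 2.36 apart on the log2 scale, so its changes of -0.13 ± 0.72 and 0.48 ± 0.72 say little about its level. Without wild-type array 1 the change in the gpa2 deletion was 1.66, and without wild-type array 2 it was -0.70.

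HES1, a member of the oxysterol-binding protein family, had deposited intensities of 2.2 to 4.1 on all 6 arrays and was at the floor on each of them, so no change was computed. HEM1 (6243_at), which encodes aminolevulinate synthase and so the first step towards the heme used by Erg11 and Erg5, had 2239.7 and 779.2 in wild type, 1668.9 and 858.3 in the gpr1 deletion and 830.1 and 716.9 in the gpa2 deletion. The wild-type arrays of HEM1 lay 1.00 apart after scaling and on either side of all 4 mutant arrays. Its log2 change was 0.14 without GPR1 and 0.24 without GPA2.

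**Figure D4:**
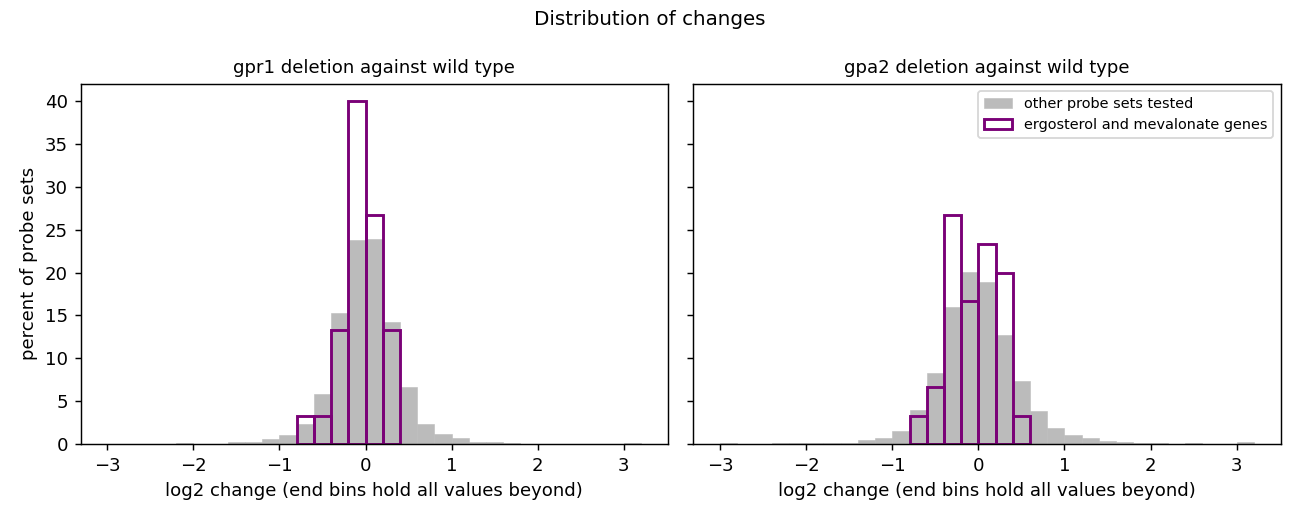
Share of probe sets by log2 change against wild type in the gpr1 deletion (left) and the gpa2 deletion (right), in percent of the 30 genes of the ergosterol and mevalonate route (purple outline) and of the other probe sets tested (grey). The 30 genes lie between -0.66 and 0.33 in the gpr1 deletion and between -0.75 and 0.48 in the gpa2 deletion. The other probe sets reach further to both sides, but they are far more numerous and include the deleted genes, so the ranges cannot be compared.

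The spread between arrays of a group set the scale of these comparisons. In the gpr1 deletion both arrays lay above both wild-type arrays for 2 members and below for 3, beside 16.1% and 16.3% of all probe sets. In the gpa2 deletion the counts were 5 above and 8 below, beside 19% and 20.7% of all probe sets. The change exceeded the wider of the 2 array gaps, that of wild type and that of the deletion, for 2 members in the gpr1 deletion (MVD1 and ERG5), beside 21% of all probe sets, and for 11 in the gpa2 deletion, beside 28.1%. The pooled standard deviation between arrays of a group ranged from 0.074 (IDI1) to 1.15 (ECM22) on the log2 scale, with a median of 0.17, and 5 members (ERG8, ERG9, ERG4, UPC2 and ECM22) had arrays of a group over 1 apart.

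Arrays with the same number in their titles deviated in the same direction for some members, and the number was therefore added to the groups as a coefficient, a comparison chosen after the values were seen. Arrays numbered 2 lay to the same side of those numbered 1 in all 3 groups for 12 of 30 members, 9 higher and 3 lower, beside 46% of all probe sets. By limma 0 of 30 members and 0% of the 6956 probe sets passed at an adjusted p under 0.05. An unadjusted p under 0.05 was found for 8 of 30 members, beside 1463 of the 6956 probe sets. The 3 members that were lower on each array numbered 2 were ERG9 (log2 difference -0.67), CYB5 (-0.37) and ERG4 (-0.76), and ERG10 (0.60) and ARE1 (0.56) were the highest of the 9 on the other side. For SPT15, whose control probe sets read RNA quality, the intensity ratio of the 3' over the 5' probe set was 3.16, 4.46 and 3.50 on the arrays numbered 1 and 10.3, 4.83 and 4.55 on those numbered 2, in the order wild type, gpr1 and gpa2. The same ratio for ACT1 was 1.26 and 1.29 in wild type and 1.35 to 1.54 over the deletions, so all 4 mutant arrays lay above both wild-type arrays. The part of these ratios in any difference between arrays or groups was not tested.

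The members do not neighbour each other or the deleted genes. By gene order in the R64 assembly, used for order only, the nearest pair of members was ERG12 and ERG2, 6 genes apart on chromosome XIII, and the nearest to a deleted gene was ERG28, 27 genes from GPA2 on chromosome V.

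Genes of adjoining processes were described as 4 lists chosen with earlier results of these data known. No gene of them passed in any of the 4 comparisons as fitted without a block. The genes named are those with the smallest unadjusted p of each list in each deletion. That choice favours genes whose arrays lie apart from wild type. Of 17 genes of sterol uptake, transport and ester breakdown, all were tested, with medians of 0.055 without GPR1 and -0.0041 without GPA2. PRY1 (11123_at), a secreted protein that binds sterols, had deposited intensities of 3455.9 and 2965 in wild type, 5720.7 and 4339.4 in the gpr1 deletion and 2827.5 and 4571.6 in the gpa2 deletion. After scaling all 4 of its mutant arrays lay above both wild-type arrays, with log2 changes of 1.01 ± 0.25 and 1.20 ± 0.25 and limma adjusted p of 0.300 and 0.0889, and the mean of both deletions lay at 1.11 ± 0.22 (adjusted p = 0.0721). With the array number as a block, a pairing that the labels do not state, PRY1 passed in the gpa2 deletion (adjusted p = 0.0187) and for the mean (adjusted p = 0.0133). SUT2, which encodes a transcription factor of sterol uptake, had 952.4 and 821.1 in wild type, 720.8 and 391.5 in the gpr1 deletion and 238.5 and 240.8 in the gpa2 deletion. All 4 mutant arrays of SUT2 lay below both wild-type arrays, with log2 changes of -0.44 and -0.88 (limma adjusted p = 0.843 and 0.211). YEH2, a sterol ester hydrolase, read -0.56 and -0.44.

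Of 11 genes that control HMG-CoA reductase or sterol and membrane lipid genes, all were tested and had medians of 0.15 and 0.086 in the gpr1 and gpa2 deletions. NSG2, which stabilises Hmg2, read 0.19 and 0.24, DAP1, a heme-binding partner of Erg11, read 0.29 and -0.19, HRD1, the ubiquitin ligase that degrades Hmg2, read 0.06 and 0.48, and MGA2, a membrane-bound transcription factor of the desaturase OLE1, read -0.28 and -0.82. The largest of these changes, that of MGA2 in the gpa2 deletion, had a limma adjusted p of 0.420.

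In the polyprenyl branch, which uses the same precursors for ubiquinone, dolichol, prenylation and heme A, 13 of 14 genes were tested, with medians of 0.048 and 0.093. MOD5, which modifies transfer RNA with an isoprenoid unit taken from the same pool as Erg20, had 1055.3 and 646.4 in wild type, 781.6 and 303.6 in the gpr1 deletion and 212.7 and 267.3 in the gpa2 deletion. After scaling all 4 mutant arrays lay below both wild-type arrays, with log2 changes of -0.47 and -0.80 (limma adjusted p = 0.842 and 0.282). COX10, which attaches a farnesyl group to heme, had 1216.7 and 336.8 in wild type and 540.9 to 1264.3 on the mutant arrays, and read 0.89 and 0.90 (limma adjusted p = 0.737 and 0.416). All 4 mutant arrays lay above both wild-type arrays, which were 1.27 apart after scaling. Without wild-type array 1 COX10 passed in each deletion, at 1.52 and 1.53 (adjusted p = 0.0385 and 0.0214), with the other wild-type array standing alone, and without wild-type array 2 it read 0.25 and 0.26 (adjusted p = 0.811 and 0.704).

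Of 20 genes of heme synthesis and of the response to low oxygen, all were tested, with medians of -0.025 without GPR1 and -0.037 without GPA2. COX5B, the hypoxic isoform of a cytochrome oxidase subunit, had 895.3 and 320.3 in wild type, 1197.8 and 528.7 in the gpr1 deletion and 636.9 and 514.9 in the gpa2 deletion. AAC3, an ADP/ATP carrier expressed when oxygen is low, had 698.6 and 899.6 in wild type, 592.1 and 261.8 in the gpr1 deletion and 175.5 and 236.2 in the gpa2 deletion. After scaling both mutant groups lay above wild type for COX5B, at log2 changes of 0.84 and 1.12, and below it for AAC3, at -0.69 and -0.95, so these genes of the low-oxygen list read in opposite directions. Neither passed by limma, with adjusted p of 0.705 and 0.255 for COX5B and 0.818 and 0.331 for AAC3, but in the gpa2 deletion both passed without wild-type array 1, at 1.57 and -1.41 (adjusted p = 0.0252 and 0.0447). Without wild-type array 2 they read 0.67 and -0.49 there (adjusted p = 0.366 and 0.532).

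**Figure D5:**
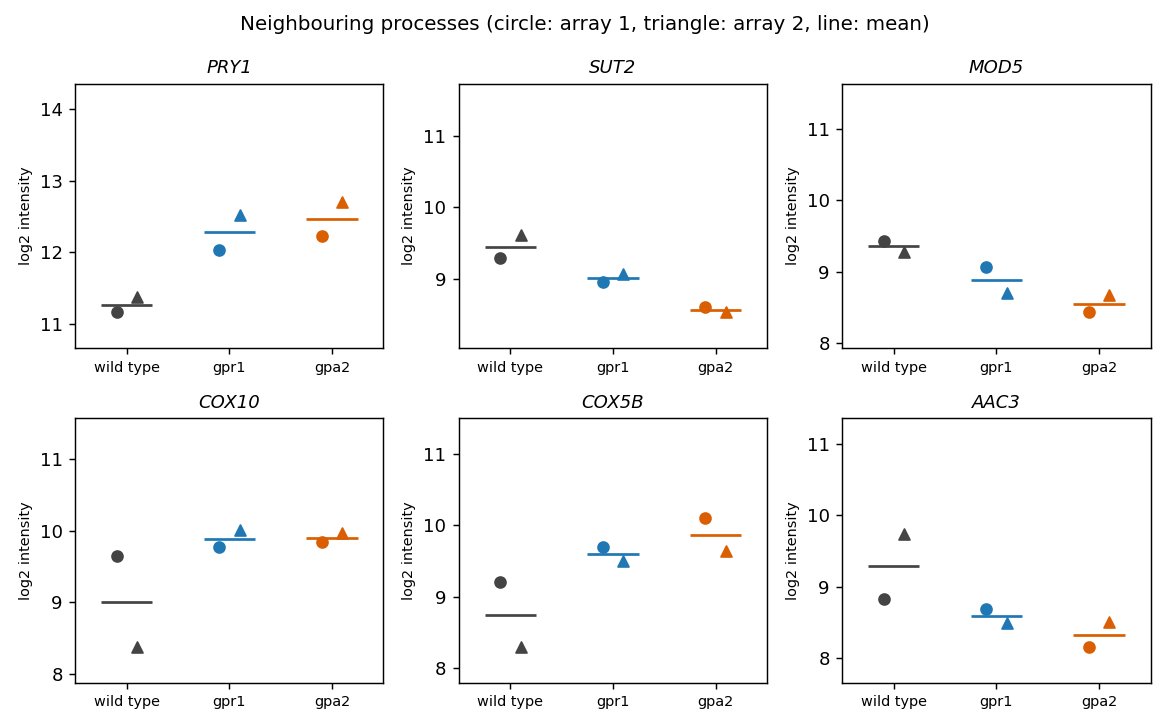
Normalised log2 intensity by array for 6 genes of adjoining processes, with circles for arrays numbered 1, triangles for arrays numbered 2, and a line at the group mean (n = 2). In PRY1, COX10 and COX5B all 4 mutant arrays lie above both wild-type arrays, and in SUT2, MOD5 and AAC3 below. The genes were picked by a small unadjusted p in these same data, which favours such separation. Of the 6956 probe sets tested, 718 had all 4 mutant arrays above both wild-type arrays and 765 had all 4 below. The wild-type arrays of COX10 lie 1.27 apart, and none of the 6 genes passed the test with all arrays and without a block.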

How the data were processed

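The data were 6 single-colour arrays, 2 each of wild type, gpr1 deletion and gpa2 deletion, grouped by sample titles. The deposited values are an intensity per probe set, linear by their range; the sources used here state neither how probes were summarised nor any scaling by the authors. After leaving out 60 of 9335 probe sets as controls, arrays were quantile normalised, values under the pooled 10th percentile (intensity 8.97) were raised to it, log2 was taken, and 2319 probe sets with a mean under the 25th percentile were left out. Each group had its own coefficient in a limma fit (3.58.1, under R 4.3.3) with a trend in the moderation and Benjamini-Hochberg adjustment over the 6956 probe sets left (3 residual and 5.50 prior degrees of freedom). The step was run on simulated arrays with known changes, as a check of the code. Their noise was independent between arrays, so that run does not show how the test performs on these arrays. Genes were found by their symbol in the platform annotation, and a check by gene identifier found 0 symbols to update.

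The members, 4 companion lists and markers were chosen with earlier results of these data known. All members are described; of each companion list, genes past the threshold and otherwise the 2 with the smallest unadjusted p in each deletion were named. Alternatives were other scalings, floors, filters, moderation and thresholds, a replicate block, and each array left out. The number of arrays limits precision. Sequences were not used here.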

Additional observations from a re-analysis of the deposited data

How the results depend on the processing

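Under all alternatives run, 0 members were called in each of the 4 comparisons, including the values as deposited, no filter on dim probe sets and an adjusted p under 0.1. On the values as deposited the median of all probe sets moved to -0.32 in the gpr1 deletion, -1.02 in the gpa2 deletion, -0.70 between the deletions and -0.67 for their mean, and the member medians moved with it to -0.38, -1.004, -0.61 and -0.67; the intervals then lay within 2-fold for 3 members in the gpr1 deletion and 0 in the others. With 1 array left out, so that the lone array of its group is assumed to vary like the others, the member median ranged from -0.074 to -0.026 in the gpr1 deletion, -0.13 to 0.035 in the gpa2 deletion, -0.038 to 0.060 between the deletions and -0.058 to -0.046 for their mean. The members within 2-fold then numbered 17 to 25, 16 to 23, 17 to 26 and 20 to 26 in the same order, and 0 to 0 were called. Of 120 member changes, 25 kept their sign under every alternative; 107 moved by more than the spread between arrays and 55 changed sign on the values as deposited, and 16 moved and 13 changed sign with median centring. With the filter at the median, 112 could be computed. Over all probe sets, calls numbered 15, 55, 2 and 55 in the gpr1 deletion, the gpa2 deletion, between them and for their mean. They became 24, 126, 10 and 63 as deposited, 6, 26, 2 and 29 without a trend, 12, 14, 5 and 17 without a filter, 8, 45, 0 and 40 with the filter at the median, 26, 110, 2 and 101 at an adjusted p under 0.1, and 8, 28 and 3 with only the groups compared, which gives no value for the mean. With 1 array left out they ranged over 5 to 54, 7 to 178, 2 to 5 and 17 to 142, the highest of the first, second and last without wild-type array 1.

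The replicate number was used as a block as an alternative, since groups share numbers that the labels tie to no common culture. Deviations of same-numbered arrays correlated at 0.203, 0.404 and 0.209 between pairs of groups. With the replicate block 0 members were called, while calls over all probe sets went from 15 to 32 in the gpr1 deletion, from 55 to 122 in the gpa2 deletion and from 55 to 128 for their mean; PRY1 was the only named gene of adjoining processes to pass with the block that did not pass without it. Over all alternatives but the deposited scale, the adjusted p of PRY1 ranged from 0.0187 to 0.447 in the gpa2 deletion and from 0.0133 to 0.282 for the mean. Intervals rest on 2 arrays per group.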
